A study of Sus scrofa with 15 samples.

Results

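IFIT1, IFIT2 and IFIT3, the interferon-induced proteins with tetratricopeptide repeats, were examined in pig backfat as every probe set whose platform-annotated symbol is exactly one of these names. The rule gave 7 probe sets of 3255 tested, with 3 for IFIT1, 3 for IFIT2 and 1 for IFIT3, and these are 3 of the 1260 genes named on the table. The samples were backfat, the subcutaneous fat over the back, from castrated male Iberian pigs, with 1 Affymetrix array per animal. There were 8 animals on a high-oleic diet, enriched in oleic acid, and 7 on a standard control diet. Both diets were given from 28 kg live weight, for 24 weeks per the labels, up to slaughter at about 110 kg, and rations were matched for energy and protein. Samples came from the inner fat layer at the last rib, and all animals share breed, sex and castration. The diets were compared to find genes in fat whose expression responds to added oleic acid.

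IFIT genes are nearly silent in many resting cells and are switched on when interferon signals through its receptors and the transcription factor IRF9, or when sensors of viral RNA activate IRF3. IFIT1 binds RNA whose cap lacks the methyl mark of the host's own messages and blocks its translation. In human cells IFIT3 binds IFIT1 and strengthens that activity, and IFIT2 joins the same complexes. Adipocytes, the immune cells among them and vessel cells can all respond to interferon. In the RefSeq annotation of assembly Sscrofa11.1, IFIT2, IFIT3 and IFIT1 lie next to one another in that order with no other annotated gene between them.

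Values are log2 signals, so a difference of 1 is a doubling, and signals of different probe sets are not set against each other. Array medians lay between 6.39 and 6.67. The array of high-oleic animal 8 had the lowest median correlation with the others (r = 0.843), followed by high-oleic animal 2 (0.876) and control animal 1 (0.877), while the remaining arrays were at 0.897 to 0.931. Of 20 adipocyte markers 5 were named on the table, and their mean log2 level was 8.75 to 10.05 in high-oleic animals and 8.57 to 9.58 in control animals. In whole tissue, fewer cells of a type and less RNA per cell cannot be told apart.

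For IFIT1, 1 animal of each diet stood far above the rest. On probe set Ssc.30752.1.S1_at the lowest, median and highest log2 signals were 8.68, 10.17 and 12.47 in high-oleic animals, against 9.28, 9.76 and 12.92 in control animals. On Ssc.30752.2.A1_at they were 7.87, 10.19 and 12.53 in high-oleic animals, against 8.94, 9.69 and 12.64 in control animals. On Ssc.30752.3.S1_at they were 6.96, 8.11 and 9.09 in high-oleic animals, against 7.26, 7.75 and 9.63 in control animals. The highest values were those of high-oleic animal 2 and control animal 1 on all 3 probe sets, and the lowest were those of high-oleic animal 8 and control animal 5. The diet groups overlapped over most of their range.

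IFIT2 showed the same 2 animals at the top of each diet. On probe set Ssc.17861.1.A1_at the lowest, median and highest log2 signals were 7.72, 8.64 and 10.39 in high-oleic animals, against 8.01, 8.59 and 10.41 in control animals. On Ssc.22620.1.S1_at they were 4.80, 6.99 and 8.26 in high-oleic animals, against 5.19, 6.32 and 8.10 in control animals. On Ssc.30532.1.A1_at they were 6.54, 6.97 and 9.15 in high-oleic animals, against 6.47, 6.85 and 8.995 in control animals. High-oleic animal 8 was the lowest of its diet on all 3, whereas the lowest control animal was number 5, 4 or 2, depending on the probe set.

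IFIT3, measured by the single probe set Ssc.31140.1.S1_at, had a lowest, median and highest log2 signal of 7.52, 7.79 and 11.23 in high-oleic animals, against 6.54, 7.26 and 11.56 in control animals. Without high-oleic animal 2 the other 7 high-oleic animals lay close together, at 7.80 ± 0.25 (SD, n = 7). Without control animal 1 the other 6 control animals were more spread, at 7.26 ± 0.75 (SD, n = 6), from 6.54 in control animal 2 to 8.45 in control animal 3. The difference in spread was not tested.

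**Figure D1:**
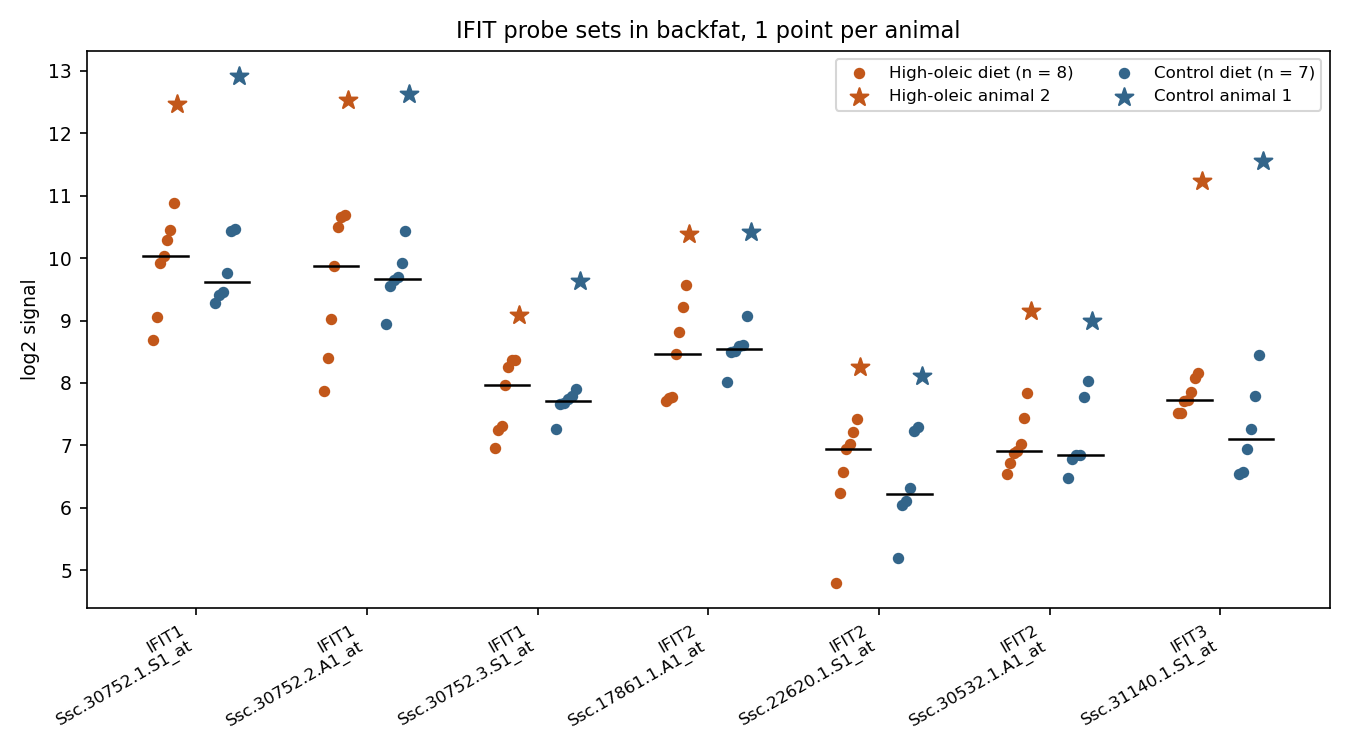
Log2 signal (vertical axis) of the 7 IFIT probe sets (horizontal axis), 1 point per animal, high-oleic animals left and control animals right within each probe set; stars are high-oleic animal 2 and control animal 1, and bars are medians of the others of each diet. On every probe set both stars lie above all 13 other animals, and the points of the diets overlap.

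No IFIT probe set passed the test for a difference between the diets. The IFIT1 probe sets averaged 10.23 ± 1.16, 9.94 ± 1.49 and 7.95 ± 0.72 in high-oleic animals (SD, n = 8), against 10.25 ± 1.27, 10.12 ± 1.196 and 7.96 ± 0.77 in control animals (SD, n = 7), in the order given above. The differences, high-oleic minus control on the log2 scale, were -0.02 (SE 0.53), -0.18 (SE 0.59) and -0.01 (SE 0.35). For IFIT2 they were -0.10 (SE 0.41), 0.20 (SE 0.45) and -0.08 (SE 0.40). IFIT3 averaged 8.23 ± 1.24 in high-oleic animals and 7.87 ± 1.76 in control animals, a difference of 0.35 (95% interval -0.99 to 1.69).

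In limma with Benjamini-Hochberg adjustment over all probe sets, the adjusted p was 0.999 for each of the 7, against 0% called among the 3255 tested. Unadjusted, 0 of the 7 and 128 of all 3255 (3.93%) had a p under 0.05 in limma, and the exact permutation test over 6435 splits gave 0 of the 7 and 136 of all. The median difference was -0.02 for the 7 and -0.03 for all tested. The 95% intervals of the first 2 IFIT1 probe sets, of Ssc.22620.1.S1_at and of IFIT3 still held a 2-fold difference in at least 1 direction, the widest for IFIT1 being -1.40 to 1.05. Those of the remaining probe sets did not, lying within -0.94 and 0.76.

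Leaving out high-oleic animal 2 and control animal 1 narrowed the intervals but made no call. The IFIT3 difference was then 0.54, high-oleic minus control (95% interval -0.09 to 1.17, unadjusted p = 0.0882, limma adjusted p = 0.999). Among all 3255 probe sets 0% were then called in limma, and 3.20% had an unadjusted p under 0.05. With live weight in the fit, which was lower on the high-oleic diet (109.2 ± 3.52 kg, n = 8, against 117.2 ± 7.32 kg, n = 7, SD), IFIT3 was -0.39 and the first 2 IFIT1 probe sets were -0.70 and -0.97, with an adjusted p of 0.9995 for each in limma.

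High-oleic animal 2 and control animal 1 had the highest values on all 7 IFIT probe sets. Earlier results of these data had already set these animals apart by their interferon genes. Their values are therefore a description with no test. All 7 IFIT probe sets had both animals above all 13 others, as did 236 of the 3255 tested (7.25%). All 7 were also more than 2-fold above the median of the others in both animals, as were 5.53% of all tested. Nothing is read from that count, since interferon genes chose the animals.

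IFIT3 stood highest above its own baseline. It was 3.51 above the median of the 13 other animals in high-oleic animal 2 and 3.84 in control animal 1, on the log2 scale, or 11.4-fold and 14.3-fold. The gap to the highest of the 13 was 2.78 in high-oleic animal 2 and 3.11 in control animal 1. Against the other control animals alone control animal 1 was 4.46 above the median, or 22.0-fold, since the control baseline of IFIT3 was lower.

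IFIT1 came next on its first probe sets but not on the last. On Ssc.30752.1.S1_at the elevation was 2.54 in high-oleic animal 2 and 2.99 in control animal 1, and on Ssc.30752.2.A1_at it was 2.84 in high-oleic animal 2 and 2.94 in control animal 1. On Ssc.30752.3.S1_at it was 1.35 in high-oleic animal 2 and 1.89 in control animal 1. The same gene thus read as 2.54-fold or 7.15-fold in high-oleic animal 2, depending on the probe set.

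IFIT2 showed the smallest elevation as a gene mean, at 2.02 in high-oleic animal 2 and 1.92 in control animal 1, against 2.30 and 2.67 for the IFIT1 mean in the same animals. Its probe sets ranged from 1.68 to 2.27 in high-oleic animal 2 and from 1.53 to 2.12 in control animal 1. The ranges of IFIT1 and IFIT2 probe sets overlapped in both animals. IFIT3 lay above all 6 of them in both animals, but no other probe set was annotated as IFIT3 to check its size.

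Against the median of the 13 others, both animals gave similar elevations. They differed by at most 0.54, on the IFIT1 probe set Ssc.30752.3.S1_at, where the SD of the 13 others was 0.45. On each of the 6 other probe sets the difference was smaller than the SD of the 13 on that probe set. Against the others of its own diet, control animal 1 stood further above high-oleic animal 2 on some probe sets. The elevations were 4.46 against 3.50 for IFIT3, 3.31 against 2.43 on Ssc.30752.1.S1_at and 1.92 against 1.12 on Ssc.30752.3.S1_at. High-oleic animal 2 was the higher on Ssc.17861.1.A1_at (1.92 against 1.87) and Ssc.30532.1.A1_at (2.23 against 2.15).

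**Figure D2:**
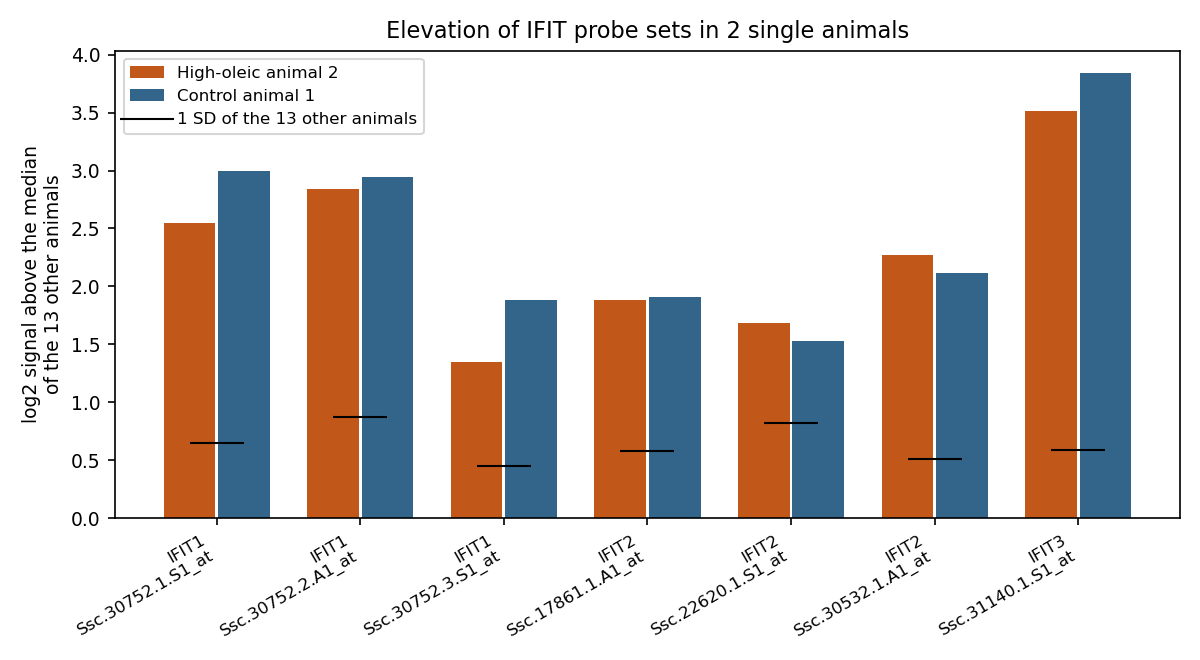
Log2 signal above the median of the 13 other animals (vertical axis, from 0) for each IFIT probe set, with a bar for high-oleic animal 2 and a bar for control animal 1; black marks show 1 SD of the 13 others. IFIT3 has the tallest bars, 3.51 and 3.84, and every bar exceeds 1 SD.

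Other genes of the interferon response were taken from lists of 104 genes, of which 28 were measured. No probe set on the table was annotated with any of the 14 ligands and receptors, and 1773 of the 3255 tested carry no symbol, so interferon itself was not analysed here. Between diets 0 of the 28 passed limma in either direction, as did 0 of the 3255 tested. Of the 28 genes, 25 had both animals above all 13 others, as had 236 of the 3255 tested (7.25%). These counts are a description for the same reason as above.

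Among signalling genes, IRF7, the factor that amplifies interferon production, was 4.65 above the median of the 13 others in high-oleic animal 2 and 3.93 in control animal 1. Its median in the 13 was 2.15, near the lowest value of the table at 1.49. USP18, which restrains receptor signalling, was 3.80 above in high-oleic animal 2 and 3.91 in control animal 1. IRF9, a transcription factor that drives IFIT genes, was 2.12 above in high-oleic animal 2 and 2.23 in control animal 1. IRF3, which acts when viral RNA is sensed and is not itself strongly induced, was 0.80 and 0.48 above in the same order and did not leave the range of the 13.

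All 4 measured sensing genes had both animals above the 13 others, as had 7.25% of all tested, again a description. ZBP1, a sensor of left-handed nucleic acid, was 4.51 above the median in high-oleic animal 2 and 5.42 in control animal 1. DDX58, which encodes the RNA sensor RIG-I, was 4.27 and 4.77 above in the same order. EIF2AK2, the kinase PKR that halts translation, was 2.44 above in high-oleic animal 2 and 3.21 in control animal 1. OAS1, which makes the activator of RNase L, was 3.19 and 2.68 above in the same order.

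IFIT3 thus lay below ZBP1 and DDX58 and above IRF9 in its elevation. The IFIT2 probe set Ssc.30532.1.A1_at lay close to IRF9, at 2.27 in high-oleic animal 2 and 2.12 in control animal 1. Below IRF9 in both animals lay Ssc.17861.1.A1_at, at 1.88 and 1.90, and Ssc.22620.1.S1_at, at 1.68 and 1.53, in the same order. Of the 20 measured effectors 18 had both animals above the 13 others, as had 7.25% of all tested. The median elevation of the 20 was 1.97 in high-oleic animal 2 and 2.33 in control animal 1. ISG15, a ubiquitin-like modifier, was 4.49 above in high-oleic animal 2 and 4.82 in control animal 1, more than any IFIT probe set. The exceptions were GBP1, a guanylate-binding protein, at 0.20 and 1.08, and TDRD7 at -0.13 and 1.71, in the same order.

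**Figure D3:**
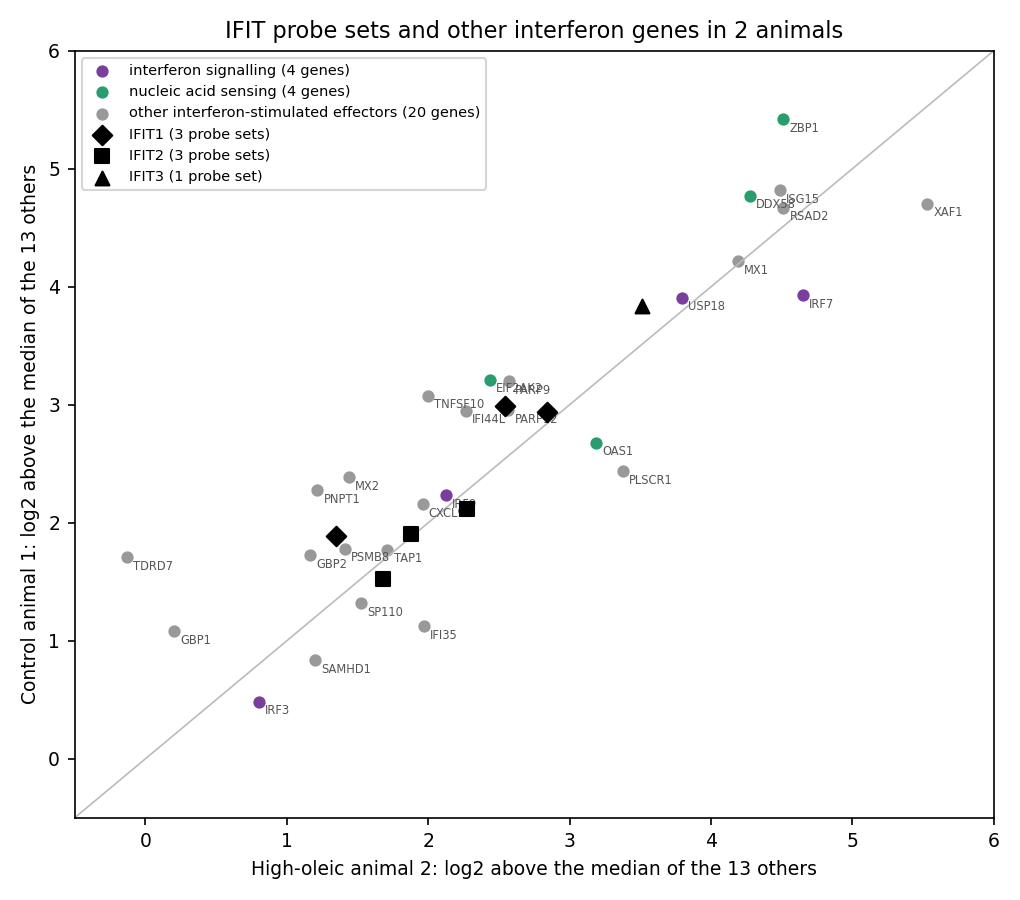
Elevation above the median of the 13 other animals on the log2 scale in high-oleic animal 2 (horizontal axis) and control animal 1 (vertical axis), with a point for each of 28 interferon genes and 7 IFIT probe sets; the line marks equal elevation. The IFIT probe sets lie near the line, IFIT3 (3.51, 3.84) between IRF9 and DDX58.

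Leukocyte markers were set beside these elevations. A marker score is the mean over genes of the log2 value minus the gene's mean over the 15 animals. The macrophage and monocyte score, with 8 of 18 markers measured, was 0.90 above the median of the 13 others in high-oleic animal 2 and 0.06 in control animal 1, where the 13 ranged from -1.27 to 1.43. The lymphocyte score, with 4 of 23 measured, was 1.07 above in high-oleic animal 2 and 0.66 in control animal 1, where the highest of the 13 was 0.77. Of its markers CD2 was 3.33 and 2.43 above the median in the same order. CD3E, CD8A and JCHAIN lay between -0.21 and 0.78 from it in the 2 animals. The mean log2 level of the lymphocyte markers was 4.28 to 5.64 in high-oleic animals and 4.11 to 5.27 in control animals, and that of the macrophage markers 7.42 to 10.12 and 8.62 to 8.99 in the same order. The neutrophil score, with 2 of 10 markers measured, was -0.31 from the median of the 13 in high-oleic animal 2 and -0.37 in control animal 1. For that score the 13 ranged from -0.94 to 1.15. None of the 9 plasmacytoid dendritic cell markers was named on the table. The part of these cells in the IFIT elevation was not tested.

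Among the other 13 animals IFIT1 and IFIT2 varied together. IFIT1 and IFIT3 passed by rank but not by Pearson's r, and IFIT2 and IFIT3 passed by neither. Over gene means, the correlation of IFIT1 with IFIT2 was r = 0.749 (permutation p = 0.00301, adjusted p = 0.00903 over 3 pairs) and rho = 0.698 (permutation p = 0.00972, adjusted p = 0.0159). That of IFIT1 with IFIT3 was r = 0.489 (permutation p = 0.0903, adjusted p = 0.135) and rho = 0.692 (permutation p = 0.0106, adjusted p = 0.0159). That of IFIT2 with IFIT3 was r = 0.219 (permutation p = 0.472) and rho = 0.412 (permutation p = 0.164). No correlation was pooled over all 15 animals, since the 2 high ones lie apart. All tests were two-sided. Whether the pairs differ in their correlation was not tested.

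The relation of IFIT1 and IFIT2 leaned on high-oleic animals 4 and 8. Without them, the 2 farthest from the median of IFIT1, r was 0.558 (permutation p = 0.0758), and without high-oleic animal 8 alone it was 0.632 with an adjusted p of 0.0651. High-oleic animal 8 had the lowest gene means of IFIT1 (7.84) and IFIT2 (6.35). For IFIT1 with IFIT3 r was 0.597 without animals 4 and 8 (permutation p = 0.0534), and for IFIT2 with IFIT3 it was 0.141 without high-oleic animals 3 and 8 (permutation p = 0.674).

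Within diets the pairs looked unlike. Among the 7 other high-oleic animals r was 0.896 for IFIT1 with IFIT2 (exact permutation p = 0.00595), 0.854 for IFIT1 with IFIT3 (exact p = 0.0196) and 0.748 for IFIT2 with IFIT3 (exact p = 0.0556). Among the 6 other control animals these were 0.341 (exact permutation p = 0.539), 0.768 (exact p = 0.0736) and 0.0412 (exact p = 0.95). Control animal 6 had the second highest IFIT2 of these 13 animals, at 8.04, and an IFIT3 of 6.58. Control animal 2, at 6.54, was the only lower one in IFIT3. The difference between diets in these correlations was not tested.

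At the level of probe sets, the 3 of IFIT1 correlated with each other at r = 0.810 to 0.950 over the 13 animals, and the 3 of IFIT2 at 0.572 to 0.743. Between IFIT1 and IFIT2 probe sets r was 0.425 to 0.876. With IFIT3 it was 0.407 to 0.588 for those of IFIT1 and 0.166 to 0.226 for those of IFIT2. These probe sets share arrays, and those of 1 gene share that gene, so the values are descriptions.

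**Figure D4:**
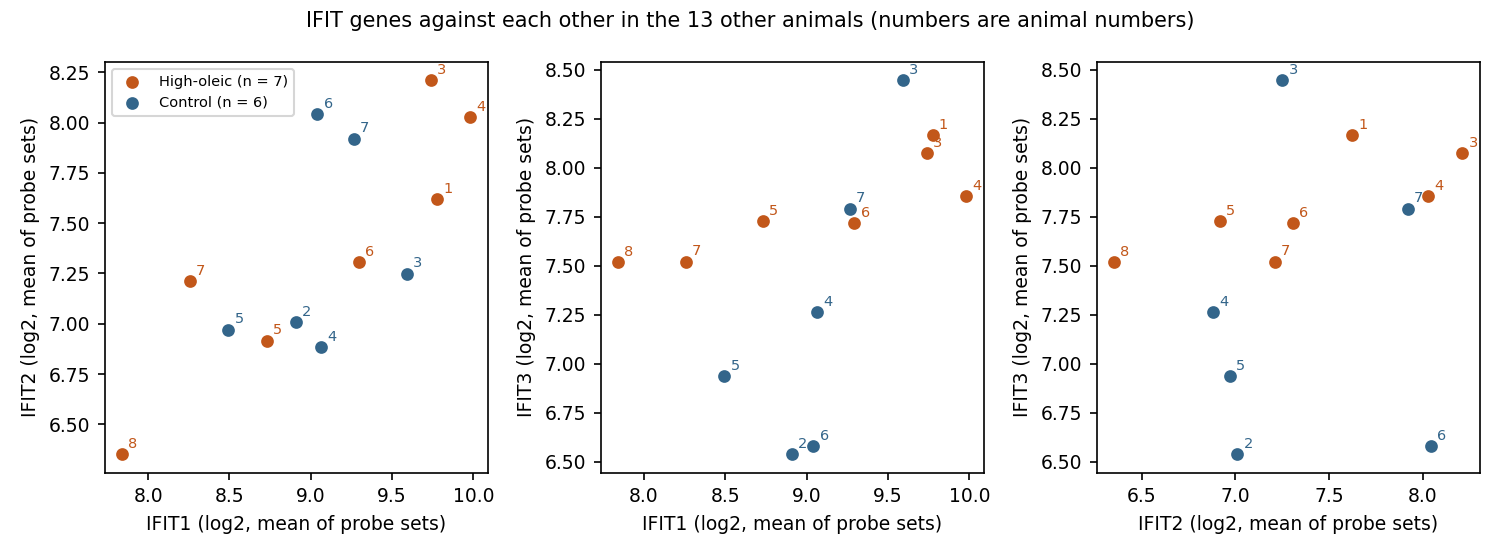
Mean log2 signal of each IFIT gene against another in the 13 other animals, with 7 high-oleic and 6 control animals labelled by their number. IFIT1 and IFIT2 spread along a common line (r = 0.749), and control animal 6 lies high in IFIT2 and low in IFIT3.

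Skeletal muscle markers ran opposite to the IFIT genes among the 13. The mean of the 3 IFIT genes gave r = -0.763 with the muscle score, for which 11 of 18 markers were measured (permutation p = 0.00243, adjusted p = 0.0243 over 10 relations), and rho = -0.808 (permutation p = 0.00117, adjusted p = 0.0117). By diet, r was -0.732 in the 7 high-oleic animals (p = 0.0516, exact permutation) and -0.821 in the 6 control animals (p = 0.0542, exact permutation), and without the 2 animals farthest in the muscle score, control animal 2 and high-oleic animal 7, it was -0.777 (permutation p = 0.00517). The mean log2 level of the markers was 3.11 to 7.49 in high-oleic animals and 2.76 to 8.06 in control animals, and control animal 1 had the lowest of all, while high-oleic animal 2 was at 4.38.

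With the muscle score regressed out of each gene, r was 0.621 for IFIT1 with IFIT2 (permutation adjusted p = 0.0742), 0.101 for IFIT1 with IFIT3 and -0.24 for IFIT2 with IFIT3. This alternative was chosen after seeing the data. The part of muscle tissue in the variation of the IFIT genes was not tested further.

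The signal of bacterial transcripts spiked into the RNA did not pass adjustment with the IFIT mean among the 13, at r = -0.617 (permutation p = 0.0222, adjusted p = 0.0884) and rho = -0.500 (permutation p = 0.0837, adjusted p = 0.257). By diet, r was -0.927 in the 7 high-oleic animals (p = 0.00794, exact permutation) and 0.0677 in the 6 control animals (p = 0.899, exact permutation), and without high-oleic animals 1 and 8 it was -0.361 (permutation p = 0.271). The spiked signal was highest in high-oleic animal 8, at 7.29, and its part in the IFIT values was not tested.

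The gene whose pattern over the 13 animals was most like the IFIT mean was TNFSF10, which encodes the death ligand TRAIL, an interferon-induced gene, at r = 0.837 among 1448 probe sets of 1257 genes searched. It was also 1.999 above the median of the 13 in high-oleic animal 2 and 3.08 in control animal 1. POSTN, the matrix protein periostin, followed at 0.828, with elevations of 0.29 in high-oleic animal 2 and 1.74 in control animal 1. LOC100519098 followed at 0.794, with elevations of 1.86 and 2.87 in the same order. The remaining 5 were GMPR2, a GMP reductase, at 0.791, EF1ALPHA at 0.790, the ubiquitin ligase UBE4A at 0.782, the KIT ligand KITLG at 0.782 and the lysosomal membrane protein LAMP2 at 0.779. In high-oleic animal 2 and control animal 1 these 5 were between -0.41 and 1.07 from the median of the others.

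Of these 8 genes 1 was on the interferon lists, as were 28 of the 1257 genes searched. Over the 28 listed interferon genes the correlation with the IFIT mean ranged from -0.53 for IFI35 to 0.837 for TNFSF10, with a median of 0.493. Over the 3248 tested probe sets other than those of IFIT, these 28 genes included, the range was -0.857 to 0.841 and the median -0.0792. DDX58 stood at 0.775 and RSAD2, the antiviral enzyme viperin, at 0.776, whereas IRF7 stood at -0.51. The median of IRF7 in the 13, 2.15, lay near the lowest value of the table. All of these correlations are descriptions over 13 arrays.

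With diet in the fit, the slope of the IFIT signal on live weight was below 0 on all 7 probe sets, but none passed the test. Per 10 kg the slopes of the IFIT1 probe sets were -0.84 (SE 0.48), -0.98 (SE 0.53) and -0.56 (SE 0.32) on the log2 scale, in the order given above. Those of IFIT2 were -0.56 (SE 0.38), -0.20 (SE 0.43) and -0.32 (SE 0.39), and that of IFIT3 was -0.93 (SE 0.59). In limma the adjusted p lay between 0.916 and 0.933, and 0% of the 3255 probe sets were called. Unadjusted, 0 of the 7 and 124 of all (3.81%) had a p under 0.05.

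The median slope was -0.56 for the 7 and 0.04 for all tested, of which 45.6% were below 0. The heaviest animal, control animal 5 at 133 kg, had the lowest IFIT1 and the third lowest IFIT3 value of its diet, and high-oleic animal 2 and control animal 1 were among the lighter of theirs, at 107 kg and 112.5 kg. Without these 2 high animals the slopes were -0.38, -0.53 and -0.29 for IFIT1, -0.27, 0.09 and 0.01 for IFIT2 and -0.27 for IFIT3, with a median of -0.27. That left 5 of 7 below 0, against 43.6% of all tested, and 0% of all were called (2.67% unadjusted). Without control animal 5 they were -1.41, -1.56 and -0.87 for IFIT1, -0.70, 0.08 and -0.17 for IFIT2 and -1.76 for IFIT3.

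The slopes were also smaller with the skeletal muscle score in the fit, at -0.33, -0.45 and -0.29 for IFIT1, -0.22, 0.15 and 0.08 for IFIT2 and -0.42 for IFIT3. The 11 measured muscle markers themselves had slopes above 0, with a median of 1.09 per 10 kg, where 45.6% of all tested had slopes below 0. Limma called no slope among these markers (adjusted p = 0.916 for each). The difference in slope between diets passed in 0 of 3255 probe sets in limma (162, or 4.98%, at an unadjusted p under 0.05), and for the 7 IFIT probe sets its adjusted p was 0.996 with unadjusted p-values of 0.524 to 0.928. Of the 28 other interferon genes 26 had a slope below 0, against 45.6% of all tested, with a median of -0.56, and none passed the test. Without high-oleic animal 2 and control animal 1 it was 21 of the 28, against 43.6% of all tested, with a median of -0.21, and again none passed.

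**Figure D5:**
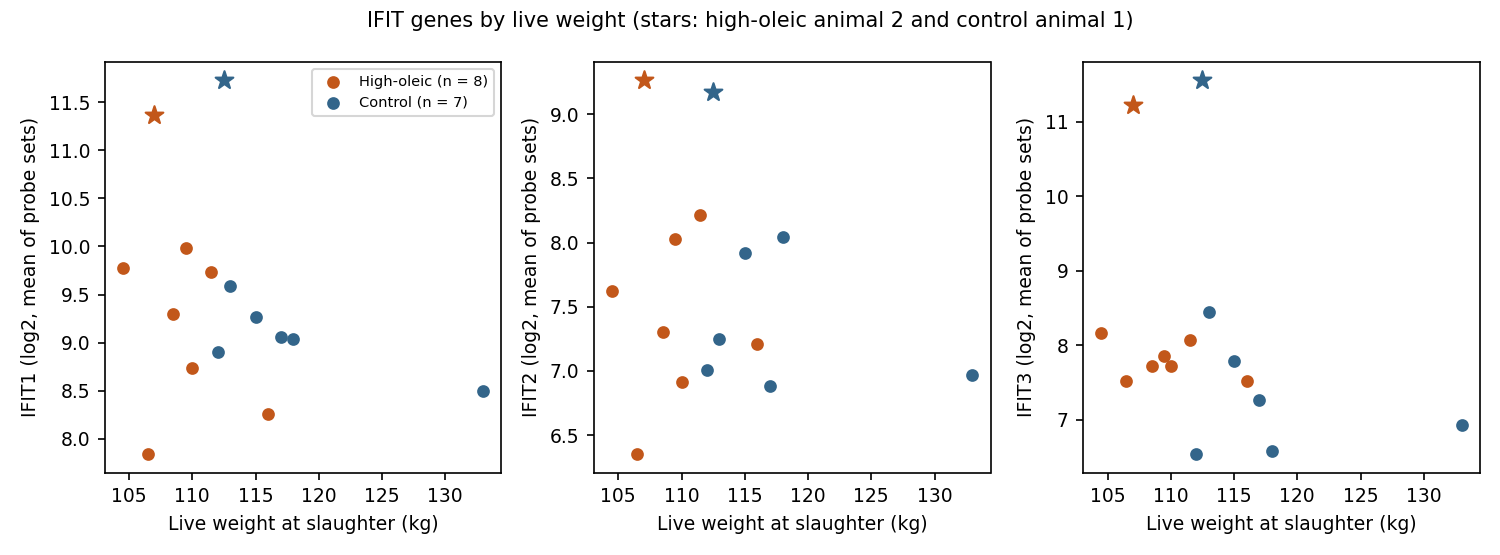
Mean log2 signal of IFIT1, IFIT2 and IFIT3 (vertical axes) against live weight at slaughter in kg (horizontal axis) for 8 high-oleic and 7 control animals, with stars for high-oleic animal 2 (107 kg) and control animal 1 (112.5 kg). The stars lie on the lighter side, and the point at 133 kg is control animal 5.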

How the data were processed

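The authors deposited log2 values per probe set for 15 arrays. The submitters' processing notes name GCOS and GCRMA; for both, version, role and settings were not given in the sources used here. This table held 3272 probe sets, in each of which the 3rd largest deviation from the median was at least 0.585, about 1.5-fold, so less variable probe sets were not analysed here. Names came from a table pairing probe sets with symbols: 1455 of 3255 tested probe sets had 1 symbol, 27 several and 1773 none, and 17 control probe sets were left out of tests. DDX58 was matched to its newer list name RIGI by hand.

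Diet (high-oleic minus control) and live weight slope (diet in the model) were fitted over all tested probe sets with limma 3.58.1 in R 4.3.3, two-sided, and p-values were adjusted by Benjamini-Hochberg and called under 0.05. Interferon and marker lists used the brightest probe set per gene. Correlations used 100000 permutations, or all orders under 10 animals. The fits were tested on simulated data. Figures were drawn with matplotlib 3.10.9. The alternatives were other normalizations, a filter on dim probe sets, leaving out animals, gene means, another variance model, array weights, another baseline, covariates (muscle score, chosen after seeing the data), a block on animal number and an exact test. Named genes were all IFIT probe sets, the measured signalling and sensing genes and the 8 genes most like the IFIT mean; the effectors and observed markers named beside them were chosen after their values were seen. Members and lists were chosen with earlier results of these data known.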

Additional observations from a re-analysis of the deposited data

Results flagged for a closer look

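The 7 probe sets and live weight were each searched, per diet, for a value standing off from its group, and 6 of the 16 searches found one. About 1 in 20 groups gives one by chance, or 0.8 in all for independent searches. The searches share animals and transcripts, and the high animals were known beforehand, so the excess is no test. In high-oleic animal 2 IFIT3 was 11.23, where the other 7 high-oleic animals had a median of 7.73. In control animal 1 the IFIT1 probe sets were 12.92, 12.64 and 9.63, against medians of 9.61, 9.67 and 7.71 in the other control animals. In the same animal IFIT3 was 11.56 against 7.10. Control animal 5 weighed 133 kg, against a median of 114 kg in the other control animals. No IFIT2 probe set was far enough from the others of its diet by this measure.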

How the results depend on the processing

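No alternative moved an IFIT probe set past the threshold: the adjusted p was 0.908 to 0.9999 for diet and 0.622 to 0.999 for the live weight slope, so the sign changes below concern values that never passed. Diet differences turned positive for Ssc.30752.1.S1_at without the 2 high animals (0.10), with array weights (0.12) and with the replicate block (0.20), for Ssc.30752.2.A1_at with the block (0.12), and for Ssc.30752.3.S1_at with quantile normalization (0.0258), median centring (0.000545), without the 2 high animals (0.11), with array weights (0.11) and with the block (0.13). With the block Ssc.17861.1.A1_at was 0.0463 and Ssc.30532.1.A1_at 0.0315, and with live weight in the fit IFIT3 was -0.39. Leaving out each animal gave -0.34 to 0.42, -0.55 to 0.24 and -0.17 to 0.27 for IFIT1, -0.34 to 0.17, -0.0412 to 0.48 and -0.34 to 0.19 for IFIT2 and -0.0759 to 0.97 for IFIT3. Slopes turned positive without the 2 high animals and with the muscle score, for Ssc.22620.1.S1_at (0.0943 and 0.15) and Ssc.30532.1.A1_at (0.00582 and 0.084), and for Ssc.22620.1.S1_at in leave-one-out fits (-0.36 to 0.0805). Called probe sets, 0 for diet in every fit, were 0 to 5 for the slope when each animal was left out (5 without control animal 2, 2 without high-oleic animal 7), 1 with no diet in the model, and 0 to 5 for the difference in slope (5 without high-oleic animal 1); none was an IFIT probe set. For the co-variation among the 13, leaving out each animal gave r = 0.632 to 0.810 for IFIT1 with IFIT2, and with the muscle score removed it was 0.621, while IFIT2 with IFIT3 turned to -0.24. The elevation of IFIT3 in control animal 1 was 4.46 against its own diet's median; the other elevations moved by less than 1 SD. The animal numbers are not stated to pair the animals, and the values did not settle whether they do. Correlations of deviations between same-numbered animals ran from -0.16 to 0.296, and 3 of 7 high-oleic animals correlated best with their own number. The replicate block leaves out high-oleic animal 8, since no control animal has its number. It gave 0 calls, which cannot decide the question, since every diet fit gave 0 calls. The cause of these shifts was not tested. The number of arrays limits the precision, and signal over background is not given for these values.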

Other observations

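Among marker genes of other cell types, CD2, a surface protein of T and natural killer cells, was 3.33 above the median of the 13 other animals in high-oleic animal 2 and 2.43 in control animal 1 on the log2 scale, above all 13. CD3E, a subunit of the T cell receptor complex, was -0.08 and 0.00 from that median in the same order, and its median of 2.54 lay near the lowest values of the table. The other lymphocyte markers measured were CD8A, at 0.78 and 0.48, and JCHAIN, at 0.30 and -0.21. KDR, an endothelial growth factor receptor with a median of 2.45, also near the lowest values, was 1.13 above in high-oleic animal 2 and 1.30 in control animal 1, again above all 13. The other endothelial markers measured were TIE1 at -0.48 and -1.44, CLDN5 at -0.53 and -0.65 and ESAM at 0.78 and 0.44. The endothelial score, over 4 of 11 markers, was 0.25 and -0.07 from the median of the 13 in the same order.

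The 8 macrophage markers measured lay between -0.80 (MRC1) and 1.504 (AIF1) from the median of the 13 in high-oleic animal 2. In control animal 1 they lay between -0.68 (MRC1) and 0.33 (CD163). None of the 8 had both animals above all 13, where 7.25% of all tested probe sets had. Among the 13 other animals the IFIT mean gave r = -0.491 with the macrophage score, 0.473 with the lymphocyte score, -0.618 with the neutrophil score (2 of 10 markers), -0.460 with the fibroblast score and -0.137 with the adipocyte score. None of these passed adjustment over 10 relations, with permutation adjusted p-values of 0.192 for macrophage, lymphocyte and fibroblast scores, 0.0884 for neutrophil and 0.811 for adipocyte scores. The adipocyte score gave r = -0.818 in the 7 other high-oleic animals and 0.653 in the 6 other control animals (exact permutation p = 0.0302 and 0.075). The fibroblast score gave -0.841 and 0.176 in the same order (exact permutation p = 0.00933 and 0.711). Macrophage, lymphocyte and neutrophil scores kept their sign in both diets. The difference between diets in these relations was not tested. The genes of these paragraphs were named after their values were seen.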
